A study of Homo sapiens with 6 samples.

Results

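The SLC25 family comprises the carriers that move metabolites, nucleotides, cofactors and ions across the inner mitochondrial membrane, together with a few relatives in the outer membrane and in peroxisomes. In the table of 26255 genes, 53 were members, taken by symbol: every gene named SLC25A with a number, the uncoupling proteins UCP1, UCP2 and UCP3, and the carrier homologs MTCH1 and MTCH2. Their expression was compared between control cells of the H1299 line (shControl) and H1299 cells given an Ephexin1-targeting shRNA (shEphexin1).

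NCI-H1299 is a lung cancer cell line, and Ephexin1, encoded by NGEF, is a guanine nucleotide exchange factor. Both groups carried a pSilencer2.1-U6 vector and were grown in RPMI-1640 with serum, antibiotics and no further treatment named in the labels, so they differed by the shRNA and by the history of the cells that carry it. There were 3 libraries of each group, made from TRIzol total RNA with a stranded total RNA kit. The study describes stable knockdown cells, and the 3 shEphexin1 libraries share a name stem. They may therefore be repeats of 1 clone, in which case the p-values describe the spread between libraries only. The values are FPKM, which scale the fragments of a gene by its length and by the size of the library, and the depth behind them is unknown.

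Carriers of this family share a fold of repeated transmembrane segments that opens in turn to either side of the membrane, and most exchange one solute for another. The ADP/ATP carriers and the phosphate carrier feed ATP synthase, the aspartate/glutamate and oxoglutarate carriers move reducing equivalents, and the citrate carrier exports carbon for lipid synthesis. Uncoupling protein 1 dissipates the proton gradient in brown fat, whereas the proteins named after it in other tissues have roles that are less settled.

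NGEF was at 13.3, 11.7 and 16.4 FPKM in shControl, against 9.81, 8.25 and 10.5 FPKM in shEphexin1, or 68.9% of the control mean (log2 difference -0.53, standard error 0.163, limma adjusted p = 0.103), and was not called. Its groups did not overlap. The limma adjusted p was 0.0338 with replicates 1 and 3 alone and 0.00572 with a model term for replicate 2. With that term 21.7% of all genes tested were at an adjusted p of at most 0.025. For NGEF it was 0.0865 to 0.268 in the fits without 1 library. With the median of the expressed genes of its chromosome arm subtracted it was 0.109. The paper checked the knockdown of its stable clones at the protein level, by western blot. Between 16958 and 17509 genes were above 0 FPKM in a library. Vimentin and the other mesenchymal markers summed to 2004 to 2357 FPKM in shControl and 2265 to 2692 FPKM in shEphexin1. Nearly all of this was vimentin. The other markers went opposite ways, with shControl and shEphexin1 means of 14.6 and 12.7 FPKM for CDH2 and 9.26 and 11.2 FPKM for FN1. CDH1 was listed at 0 in all 6 libraries. The 5 epithelial markers summed to 72.8 to 118 FPKM against 39.2 to 58.4 FPKM, nearly all of it KRT18. KRT8 was also lower in shEphexin1 (means of 6.78 and 3.13 FPKM), while EPCAM was higher at a very low level (0.041 and 0.173 FPKM). KRT19 had means of 0.082 and 0.066 FPKM. Markers of fibroblasts and of blood and endothelium summed to under 1 FPKM in every library, with COL1A2, LUM, PTPRC and CD3E among those listed at 0. Replicate 2 of both groups differed from replicates 1 and 3 in the level of GC-rich and GC-poor genes, and values for replicates 1 and 3 alone are therefore given where members came near the threshold. The part of the markers in the differences of the family was not tested.

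The members differed widely in level. In shControl and shEphexin1 together, 3 members had a mean of at least 100 FPKM, 22 lay between 10 and 100 FPKM, 15 between 1 and 10 FPKM and 13 below 1 FPKM. SLC25A3, the phosphate carrier, was the most abundant at 383 ± 4.17 FPKM (SD, n = 3) in shControl. It was followed by the ADP/ATP carrier SLC25A5 at 227 ± 27.1 FPKM and by MTCH1 at 112 ± 18.4 FPKM. The shControl libraries of these 3 did not overlap with those of the next member in the order. From MTCH2 down most levels ran into one another, and over the whole order of 53 members the libraries of 43 of the 52 pairs of neighbours overlapped.

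**Figure D1:**
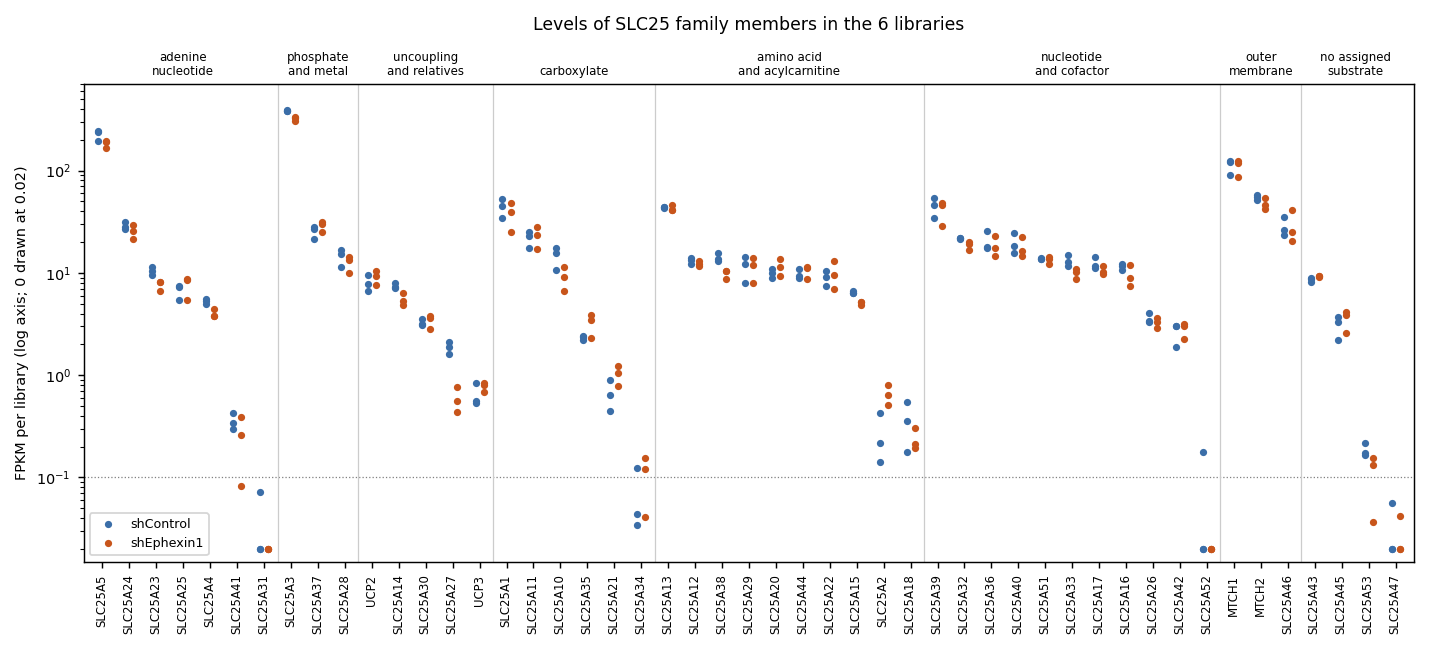
FPKM of 49 members in every library on a log axis, grouped by substrate class and ordered within a class by mean, with shControl in blue, shEphexin1 in orange, a value of 0 drawn at 0.02 and the filter of 0.1 FPKM as a dotted line. SLC25A3, SLC25A5 and MTCH1 lie highest, and SLC25A27 is the member whose groups stand farthest apart on this axis among those above 1 FPKM in shControl.

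SLC25A3 alone made up 25.9% to 31.6% of the summed FPKM of the family, and the 5 most abundant members together 60.1% to 63.3%. The family summed to 1302 ± 66.2 FPKM in shControl and to 1150 ± 44.9 FPKM in shEphexin1 (SD, n = 3), and the libraries did not overlap. As a share of all FPKM in a library the family was at 0.211%, 0.219% and 0.208% in shControl and at 0.212%, 0.213% and 0.199% in shEphexin1. On that scale the groups overlapped.

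Of the 53 members, 47 passed the filter of at least 0.1 FPKM in at least 3 libraries and were tested. UCP1, the uncoupling protein of brown fat, and SLC25A48 were listed at 0 in all 6 libraries, and so was SLC25A6, the third ADP/ATP carrier. SLC25A6 lies in the region shared by the X and Y chromosomes (X, 1505045 to 1511006, GRCh37). Of 18 protein-coding genes annotated on both X and Y, 17 were listed at 0 in all 6 libraries, against 26.5% of all genes. The 0 of SLC25A6 was therefore read as listed and not as absence of its RNA. The germ cell ADP/ATP carrier SLC25A31, the NAD+ carrier copy SLC25A52 and the liver member SLC25A47 were above 0 in 1 or 2 libraries and at most at 0.178 FPKM.

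Among the 47 members tested, 1 was called, namely SLC25A27, which was lower in shEphexin1. A call required a fitted difference of at least 2-fold and a limma adjusted p no higher than 0.025. In the whole table, 1.89% of the 16020 genes tested were called, 0.999% lower and 0.893% higher, so 1 member among 47 was near the background. At an unadjusted p of at most 0.05 there were 11 members, against 23.3% of all genes tested. Of these members 10 were lower and 1 was higher, against 12.8% and 10.5% of all genes. The libraries of the groups did not overlap for 10 members that were lower and 2 that were higher, against 15.4% and 12.8% of all genes. The log2 difference was negative for 31 of 47 members (66.0%, against 51.1% of all genes), with a median of -0.14 against -0.0093 over all genes tested. With genes of at least 1 FPKM only, the medians were -0.14 for 40 members and -0.035 for 12638 genes. Differences were small: 44 of the 47 members (93.6%) were within 1.5-fold, against 83.0% of all genes. All differences are on the log2(FPKM + 0.1) scale, which understates the change of low genes, and in bulk RNA fewer expressing cells and less RNA per cell cannot be told apart.

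**Figure D2:**
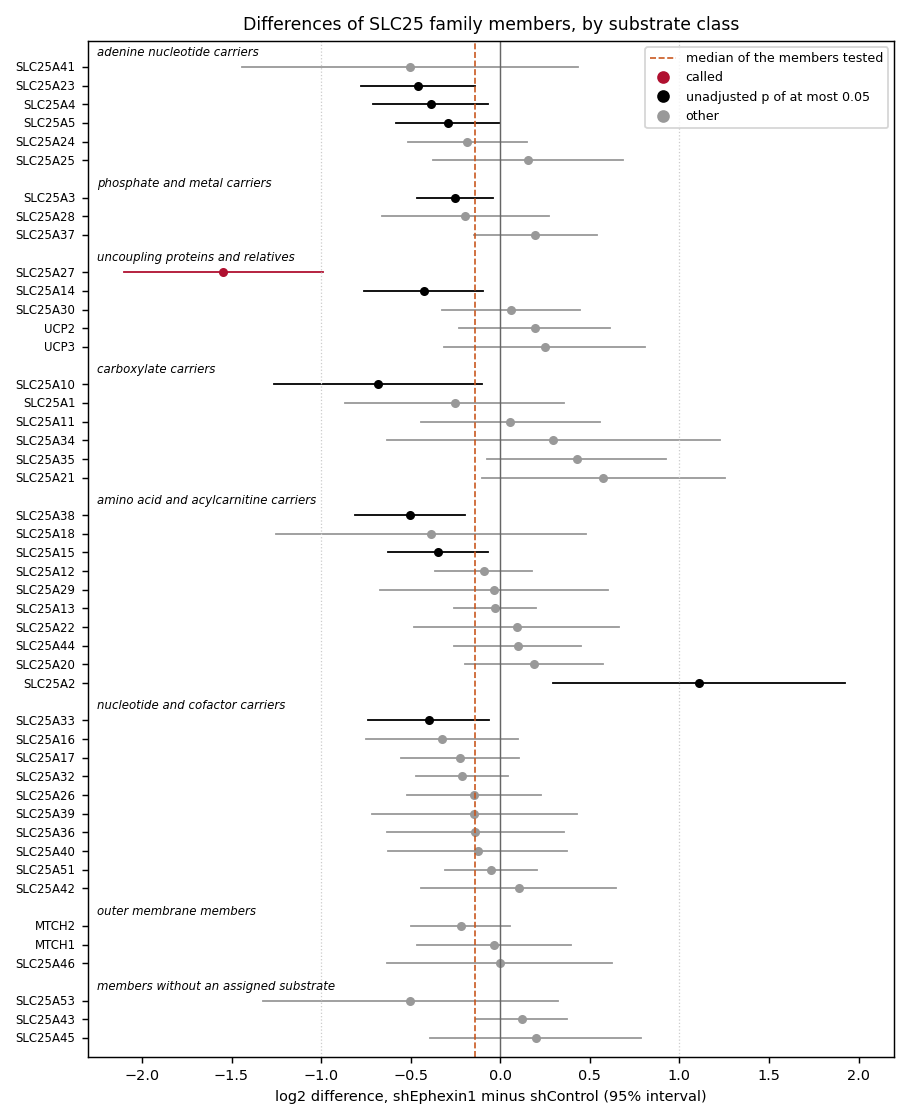
Log2 difference of 46 of the 47 tested members with the 95% interval from limma, shEphexin1 minus shControl, by substrate class, with the called member in red, members with an unadjusted p of at most 0.05 in black, others in grey, dotted lines at a 2-fold difference and a dashed line at the median of -0.14. SLC25A27 lies at -1.55, SLC25A2 at 1.11 and the other members shown between -0.68 and 0.58.

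SLC25A27 encodes the uncoupling protein relative known as UCP4, described mainly in brain. It was at 1.89, 2.10 and 1.62 FPKM in shControl, against 0.561, 0.759 and 0.433 FPKM in shEphexin1. Each shEphexin1 library was below every shControl library, and the shEphexin1 mean was 31.3% of the shControl mean (1.87 ± 0.244 and 0.584 ± 0.164 FPKM, SD, n = 3). The log2 difference was -1.55 with a standard error of 0.237, a 2.92-fold lower level (limma adjusted p = 0.0142), and the exact permutation test gave p = 0.1, the smallest that 3 libraries against 3 allow. By replicate number the differences were -1.59, -1.36 and -1.69. With replicates 1 and 3 alone the difference was -1.64 (limma adjusted p = 0.0102), and with a term for replicate 2 the adjusted p was 0.00127.

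The call of SLC25A27 was lost in most fits that left out 1 library. Those fits called fewer genes over the whole table as well, 61 to 189 against 303 with all 6 libraries. Without shControl replicate 1, 2 or 3 the limma adjusted p was 0.0851, 0.0431 and 0.0459, and without shEphexin1 replicate 1 or 3 it was 0.0749 and 0.0484, all above the threshold of 0.025. Without shEphexin1 replicate 2 it was 0.0135. The log2 difference stayed between -1.72 and -1.38 in these fits. With a pseudocount of 1 FPKM the difference was -0.86, short of a 2-fold change, at an adjusted p of 0.0102. The level in shControl is low, and the brain markers GFAP, SNAP25, SYN1 and RBFOX3 summed to 0.784 to 0.881 FPKM in shControl and 1.22 to 1.58 FPKM in shEphexin1. Most of this was SNAP25 (means of 0.678 and 1.07 FPKM), and GFAP, SYN1 and RBFOX3 did not pass the filter.

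SLC25A27 lies on the plus strand of chromosome 6 from 46620652 to 46645927 (GRCh37) and starts 85 bases from CYP39A1, a sterol hydroxylase gene that runs in the opposite direction. CYP39A1 was at 0.355, 0.393 and 0.0495 FPKM in shControl, against 0.0417, 0.0463 and 0.0942 FPKM in shEphexin1, did not pass the filter, and its groups overlapped. SLC25A27 also overlaps TDRD6-AS1, which runs on the opposite strand and cannot be told apart from it where strand was not used in counting. The bases between both genes that neither RefSeq nor GENCODE places in a transcript are shown because the pair shares this start region (GRCh38.p14 chr6:46652831-46652914, GRCh37 chr6:46620568-46620651, plus strand, toward SLC25A27). The capitals mark GGGCGG, a GC box, which begins 32 bases before the start of SLC25A27.
SLC25A27 and CYP39A1: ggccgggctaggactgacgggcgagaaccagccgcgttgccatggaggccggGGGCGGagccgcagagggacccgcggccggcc

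Of the 4 other uncoupling proteins and relatives tested, 0 were called, against 1.89% of all genes tested. SLC25A14, also called UCP5 or brain mitochondrial carrier protein, was at 7.18, 7.24 and 7.89 FPKM in shControl, against 5.33, 6.38 and 4.88 FPKM in shEphexin1. The groups did not overlap, but the difference was -0.43 (standard error 0.143, limma adjusted p = 0.126) and was not called. UCP2, which exports metabolites of the citric acid cycle, was at 6.71, 7.72 and 9.48 FPKM against 9.26, 7.58 and 10.5 FPKM, and its groups overlapped (0.19, standard error 0.180, limma adjusted p = 0.584). UCP3, the muscle form, was between 0.533 and 0.848 FPKM in the 6 libraries, and the kidney member SLC25A30 between 2.82 and 3.78 FPKM.

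The adenine nucleotide carriers exchange ADP for ATP or, in the ATP-Mg/phosphate group, adjust the nucleotide pool of the matrix. Of 6 tested members 0 were called, against 1.89% of all genes tested. The difference was negative for 5 of them, against 51.1% of all genes, and the median was -0.34 against -0.0093. With replicates 1 and 3 alone 4 were negative and the median was -0.28, as SLC25A41, below 1 FPKM, moved from -0.50 to 0.010. SLC25A5, the main ADP/ATP carrier of dividing cells, was at 239, 195.5 and 245 FPKM in shControl, against 196, 167 and 191 FPKM in shEphexin1. Its groups overlapped by a single pair, as shEphexin1 replicate 1 lay just above shControl replicate 2 (-0.29, standard error 0.124, limma adjusted p = 0.213). GENCODE holds 9 pseudogenes named after SLC25A5, so its reads may be shared. SLC25A4, the carrier of heart and muscle, was at 5.27, 4.96 and 5.61 FPKM in shControl, against 3.80, 4.45 and 3.79 FPKM in shEphexin1.

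The groups of SLC25A4 did not overlap (-0.39, standard error 0.137, limma adjusted p = 0.143). SLC25A23, a calcium-regulated ATP-Mg/phosphate carrier, was at 10.5, 9.64 and 11.5 FPKM in shControl, against 8.20, 6.72 and 8.06 FPKM in shEphexin1. It did not overlap between groups either (-0.46, standard error 0.137, limma adjusted p = 0.094). Within its group, SLC25A24 and SLC25A25 overlapped between the conditions, at 21.6 to 31.5 FPKM and 5.39 to 8.77 FPKM. The ratio of SLC25A5 to SLC25A4 was 39.4 to 45.4 in shControl and 37.5 to 51.7 in shEphexin1, which overlapped.

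SLC25A3 imports the phosphate used by ATP synthase, and copper for cytochrome c oxidase. It was at 379.9, 388 and 381 FPKM in shControl, against 328, 334 and 303 FPKM in shEphexin1, with no overlap. The difference was -0.25 (standard error 0.0898, limma adjusted p = 0.146) and turned to 0.087 with quantile normalization. On its chromosome arm, 12q, the median of the 509 expressed genes was -0.17, and with that subtracted the difference was -0.085.

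The iron carriers SLC25A37 and SLC25A28, mitoferrin-1 and mitoferrin-2, were at 21.2 to 31.6 FPKM and 9.93 to 16.7 FPKM, with 0.20 and -0.20 as log2 differences, and neither was called. The ratio of SLC25A37 to SLC25A28 was 1.60 to 1.88 in shControl and 2.19 to 2.54 in shEphexin1. Of 11 pairs of related members this was 1 of 2 whose ratio did not overlap between the groups. Among all single genes tested, 28.3% did not overlap, and no such share was computed for ratios. SLC25A28 lies on 10q, an arm whose 354 expressed genes had a median difference of -0.30, and SLC25A37 on 8p, where the median was -0.078. Whether the arms account for the ratio was not tested.

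Among the carboxylate carriers 0 of 6 were called, against 1.89% of all genes tested. SLC25A10, which exchanges malate and succinate for phosphate, was at 15.6, 10.8 and 17.4 FPKM in shControl, against 9.21, 6.64 and 11.4 FPKM in shEphexin1. The groups overlapped, because replicate 2 was the lowest library of each, while within each replicate number shEphexin1 was lower. The difference was -0.68 (standard error 0.247, limma adjusted p = 0.154). With replicates 1 and 3 alone it was -0.68 at an adjusted p of 0.0198, and with a term for replicate 2 the adjusted p was 0.00244. In those fits 10.6% and 21.7% of all genes tested were at an adjusted p of at most 0.025. Without 1 library the limma adjusted p of SLC25A10 was 0.0865 to 0.385. The 505 expressed genes of its arm, 17q, had a median of -0.21, and with that subtracted the difference was -0.47 (limma adjusted p = 0.342).

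SLC25A1, the citrate carrier, was at 45.5, 34.3 and 52.8 FPKM and at 39.7, 25.1 and 48.6 FPKM, again with replicate 2 lowest in both groups. Its groups overlapped and its direction was lost without shEphexin1 replicate 2 (0.014 against -0.25 with all libraries). The oxoglutarate/malate carrier SLC25A11 lay between 17.3 and 28.2 FPKM and the oxodicarboxylate carrier SLC25A21 between 0.452 and 1.24 FPKM, and both overlapped.

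The amino acid carriers held the member with the smallest p after SLC25A27. SLC25A38 imports glycine for the first step of haem synthesis. It was at 13.6, 13.01 and 15.6 FPKM in shControl, against 10.5, 8.80 and 10.4 FPKM in shEphexin1. All shEphexin1 libraries were below all shControl libraries, and the mean was 70.2% of the control (-0.51, standard error 0.131, limma adjusted p = 0.0648). With replicates 1 and 3 alone the difference was -0.48 at an adjusted p of 0.0299, and the fold of 1.42 was below 2 in any case. With the median of its arm, 3p, subtracted the difference was -0.43 (limma adjusted p = 0.122).

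SLC25A38 lies on the plus strand of chromosome 3 from 39424861 to 39438842 (GRCh37). The 250 bases before its start, on the same strand, are shown for 2 words that the windows of most members lack (GRCh38.p14 chr3:39383120-39383369, GRCh37 chr3:39424611-39424860). The capitals mark CACGTG, an E box, 44 bases before the start and CCGGAAG, an ETS core word, 25 bases before it.
SLC25A38: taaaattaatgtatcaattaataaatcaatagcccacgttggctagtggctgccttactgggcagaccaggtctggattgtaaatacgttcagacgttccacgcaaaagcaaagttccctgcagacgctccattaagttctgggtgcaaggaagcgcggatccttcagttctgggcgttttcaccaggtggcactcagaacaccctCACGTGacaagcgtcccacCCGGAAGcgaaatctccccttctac

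Promoter windows of 250 bases before to 50 after a RefSeq start were found for 45 members, in 59 windows. The median GC content of these windows was 66.0% against 58.7% over 35116 windows of all genes, with a median of 27 against 14 CpG. The GC box GGGCGG, searched on both strands, was in 33 of 45 members (67.8% of their windows, 45.0% of all windows). CCAAT was in 24 members (44.1% and 34.6%), CACGTG in 11 (18.6% and 7.26%) and CCGGAAG in 12 (20.3% and 10.3%). TATAAA was in 3 members (6.78% and 11.5%) and the palindromic word bound by nuclear respiratory factor 1 in 5 (8.47% and 5.78%). A word in a window is a description of sequence and no evidence of binding. SLC25A38 held both CACGTG and CCGGAAG, and so did MTCH1, SLC25A22, SLC25A26 and SLC25A46. SLC25A27 held CCAAT and GGGCGG, and so did MTCH1, SLC25A3 and other members.

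The ornithine carriers had differences of opposite sign, and neither was called. SLC25A15, the ornithine carrier of the urea cycle, was at 6.37, 6.37 and 6.70 FPKM in shControl, against 5.18, 4.80 and 5.22 FPKM in shEphexin1, with no overlap (-0.35, standard error 0.119, limma adjusted p = 0.133). SLC25A2, its intronless copy, was at 0.141, 0.217 and 0.430 FPKM and at 0.512, 0.641 and 0.801 FPKM. The groups of SLC25A2 did not overlap, and its log2 difference of 1.11 (standard error 0.349, limma adjusted p = 0.108) was a 2.16-fold higher level that was not called.

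SLC25A2 is close in sequence to SLC25A15 and lies within the annotated span of TAF7 on the same strand (5, 140682202 to 140683616, GRCh37). TAF7, a subunit of transcription factor TFIID, was at 46.0 to 51.9 FPKM in shControl and 48.5 to 55.4 FPKM in shEphexin1. How reads were shared out between these genes is not known, so the low level of SLC25A2 is uncertain. The ratio of SLC25A15 to SLC25A2 was 15.6 to 45.0 in shControl and 6.52 to 10.1 in shEphexin1.

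SLC25A13, or citrin, the aspartate/glutamate carrier of the malate-aspartate shuttle, was the most abundant amino acid carrier. It was at 43.6, 44.4 and 42.6 FPKM in shControl, against 41.2, 46.2 and 40.8 FPKM in shEphexin1, and the groups overlapped (-0.028, 95% interval -0.26 to 0.20). Its direction changed to 0.062 with correction for GC content and length and to 0.065 with quantile normalization. Its sister SLC25A12 was at 11.6 to 13.95 FPKM, and the ratio of both was 3.18 to 3.55 over the 6 libraries. The carnitine/acylcarnitine carrier SLC25A20, the branched-chain amino acid carrier SLC25A44 and the glutamate carrier SLC25A22 all overlapped between the groups.

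Of the 11 tested nucleotide and cofactor carriers 0 were called, against 1.89% of all genes tested. The difference was negative for 10 of them (9 with correction for GC content and length, and 7 with arm medians subtracted). Over all genes 51.1% were negative, and the medians were -0.15 for the class and -0.0093 for all genes. SLC25A33, which carries pyrimidine nucleotides for mitochondrial RNA and DNA, was at 12.8, 11.7 and 14.9 FPKM in shControl, against 10.1, 8.75 and 10.9 FPKM in shEphexin1. Its groups did not overlap (-0.40, standard error 0.143, limma adjusted p = 0.148). SLC25A39, the most abundant of the class and an importer of glutathione, was at 46.3, 34.0 and 54.2 FPKM against 45.6, 28.6 and 48.3 FPKM. The groups of SLC25A39 overlapped, and its difference of -0.15 became 0.063 with the median of 17q subtracted.

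The folate carrier SLC25A32 was at 21.5 to 21.8 FPKM in shControl and 16.9 to 20.1 FPKM in shEphexin1, without overlap (-0.21, limma adjusted p = 0.302), and its arm 8q had a median of -0.24. The NAD+ carrier SLC25A51 was at 12.3 to 14.25 FPKM, with overlapping groups.

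In the outer membrane, MTCH2 inserts tail-anchored proteins and MTCH1 is its homolog. MTCH2 was at 54.7, 58.3 and 52.04 FPKM in shControl, against 46.3, 53.5 and 42.3 FPKM in shEphexin1, with a single pair of libraries overlapping (-0.22, standard error 0.119, limma adjusted p = 0.32). MTCH1 was at 120, 91.2 and 125 FPKM against 119, 86.1 and 125 FPKM. Its difference of -0.034 turned to 0.094 with quantile normalization, and its 95% interval, -0.46 to 0.39, holds changes of either sign. SLC25A46, which acts in mitochondrial shape, was at 20.7 to 41.1 FPKM with overlapping groups.

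SLC25A43, a member without an assigned substrate, was at 8.81, 8.19 and 8.66 FPKM in shControl, against 9.41, 9.10 and 9.38 FPKM in shEphexin1. The shEphexin1 libraries were all higher, by a log2 difference of 0.12 (standard error 0.109, limma adjusted p = 0.576). Taking all tested members that were not described library by library, 29 genes, the log2 differences ran from -0.50 to 0.58, 16 were negative, 27 overlapped between groups and the smallest limma adjusted p was 0.288.

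The spread between libraries of a group followed the GC content of the transcript. Over the 40 members of at least 1 FPKM, the log2 level in replicate 2 minus that of replicates 1 and 3 fell with GC content, with a Spearman rank correlation of -0.792 in shControl and -0.885 in shEphexin1. This is a description across genes that share their libraries, and the value over 12224 genes of at least 1 FPKM was -0.795 and -0.865. SLC25A46, at 32.1% GC, was 0.51 and 0.85 higher in replicate 2 of shControl and shEphexin1 on the log2 scale. SLC25A1, at 65.6% GC, was at -0.51 and -0.80 on the same scale.

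**Figure D3:**
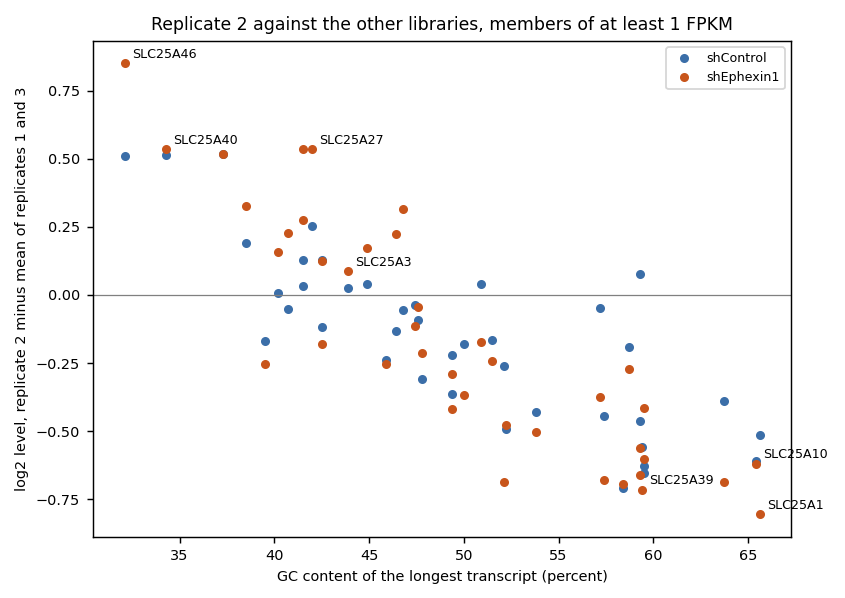
Log2 level of replicate 2 minus the mean of replicates 1 and 3 for the 40 members of at least 1 FPKM, against the GC content of the longest transcript in percent, with shControl in blue and shEphexin1 in orange. The points fall from SLC25A46 at the upper left to SLC25A1 at the lower right in both groups.

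With a model term for replicate 2, which takes up this spread, 9 members had an adjusted p of at most 0.025 in place of 1. The sample titles name no batch, and the term rests on the deviation of replicate 2 seen in these same libraries. All 9 were lower: SLC25A27, SLC25A10, SLC25A38, SLC25A23, SLC25A5, SLC25A33, SLC25A3, SLC25A15 and SLC25A14. They were 19.1% of the members tested, and in the same fit 21.7% of all genes tested were at that adjusted p. Without the term 3.41% of all genes were. Only SLC25A27 among them reached a 2-fold difference. With replicates 1 and 3 alone, 2 members (SLC25A27 and SLC25A10) were at that adjusted p, or 4.26%, against 10.6% of all genes. In that fit SLC25A14, SLC25A4, SLC25A16, SLC25A23, SLC25A33, SLC25A5, SLC25A15, SLC25A3 and MTCH2 lay between -0.55 and -0.27 at limma adjusted p-values from 0.0264 for SLC25A5 to 0.109 for SLC25A15. In the other direction, SLC25A35 of the carboxylate class was at 0.67 (adjusted p = 0.0332) and SLC25A2 at 1.05 (0.167). With all 6 libraries SLC25A35 had overlapping groups and a difference of 0.43 (limma adjusted p = 0.288).

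Some differences were close to the median of their chromosome arm. With the median of the expressed genes of its arm subtracted, the median over members went from -0.14 to -0.067 and the number of negative differences from 31 to 28 of 47. SLC25A16, a carrier linked to coenzyme A, and SLC25A28 lie on 10q (median -0.30) and went from -0.32 and -0.20 to -0.021 and 0.11. SLC25A13 and SLC25A40 lie on 7q, where the median was 0.30, and went from -0.028 and -0.13 to -0.33 and -0.42. SLC25A27 on 6p, with an arm median of 0.018, stayed at -1.56 (limma adjusted p = 0.0164).

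Carriers are brought to the inner membrane by the TOM receptors and pore, the small TIM chaperones and the TIM22 complex. Of these 13 import genes 0 were called, against 1.89% of all genes tested. At an unadjusted p of at most 0.05, 3 were lower and none were higher, against 12.8% and 10.5% of all genes tested. The receptor TOMM20 was at 50.2, 50.6 and 49.8 FPKM in shControl, against 35.3, 38.5 and 30.6 FPKM in shEphexin1, without overlap (-0.53, standard error 0.114, limma adjusted p = 0.0365). The chaperone TIMM8B was at 42.0 to 57.7 FPKM and 32.7 to 37.5 FPKM (-0.53, adjusted p = 0.0793), and the receptor TOMM22 at 61.8 to 78.6 FPKM and 53.9 to 56.4 FPKM (-0.34, adjusted p = 0.129).

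The pore TOMM40 was at 170 to 274 FPKM and overlapped. Of the 13 import genes 11 were negative, with a median of -0.12, against 51.1% and -0.0093 over all genes tested. Among all genes of at least 1 FPKM, 54.7% were negative, with a median of -0.035. Among 16 other inner membrane transporters 0 were called, against 1.89% of all genes tested. At an unadjusted p of at most 0.05, 6 were lower and 1 was higher (12.8% and 10.5% of all genes). The median was -0.24 against -0.0093 over all genes. Those lower included GHITM and the sideroflexins SFXN1, SFXN2 and SFXN3, and the 1 higher was the ABC transporter ABCB8 on 7q. The outer membrane channel VDAC2 was lower at that p, while VDAC1 and VDAC3 overlapped.

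Of these 32 import, transport and channel genes, 7 lie on 10q, among them GHITM, MCU, SFXN2, SFXN3, SFXN4 and VDAC2. Their differences were between -0.66 and -0.27, and between -0.36 and 0.033 with the median of 10q subtracted, where the smallest limma adjusted p was 0.282. The part of the arm in these differences was not tested.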

How the data were processed

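RNA was measured in 3 shControl and 3 shEphexin1 libraries. The authors aligned the reads to GRCh37/hg19 with TopHat2 2.0.13 and Bowtie after base calling with bcl2fastq 2.20, and deposited 1 FPKM value per gene and library from Cuffdiff (Cufflinks 2.2.1), with geometric library scaling and pooled dispersion. The gene annotation is not given in the sources used here, nor is how reads shared between near-identical copies were split. Gene length, library scaling and this sharing all enter the FPKM. No read counts came with the values and low values showed no steps of whole reads, so the depth is unknown, no interval for counting error is given, and only the 6 libraries limit the precision stated.

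Members were the rows whose symbol is SLC25A with a number, UCP1 to UCP3, MTCH1 or MTCH2. The members, their classes and the other gene lists were chosen with earlier results of these data known. All 26255 rows were filtered to 16020 with at least 0.1 FPKM in at least 3 libraries, transformed as log2(FPKM + 0.1) and fitted with limma 3.58.1 in R 4.3.3 (lmFit, eBayes with trend), with Benjamini-Hochberg adjustment over the 16020. A call required a fitted fold of at least 2 and an adjusted p no higher than 0.025. Standard errors and 95% intervals are those of the fit. Exact permutation tests are two-sided. The procedure was tested on simulated data first.

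Members given library by library were those called, those with an unadjusted p of at most 0.05, those with a fitted fold of at least 1.5 in either direction, the member with the highest mean in each class, SLC25A27, UCP2 and MTCH2. Position, GC content and transcript length came from GENCODE release 44 on GRCh37 (22422 names matched directly and 1332 through an older symbol, with 53 of 53 members). Promoter windows are from RefSeq on GRCh38.p14. Figures were drawn with matplotlib 3.10.9. The alternatives tried were other pseudocounts, filters, scalings, moderation and thresholds, folds from group means, and GC and length correction. Further alternatives were a term for replicate 2, replicate 2 left out, chromosome arm medians subtracted, a replicate block, and each library left out. The single values of some genes are not reported here.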

Additional observations from a re-analysis of the deposited data

How the results depend on the processing

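The number of members called was 1; it was 0 with a pseudocount of 1 FPKM, 2 with GC and length correction, with that correction and a replicate block, and with a replicate block alone, and 0 to 1 in the fits without 1 library. The second member was SLC25A2, at a limma adjusted p of 0.0247, 0.0129 and 0.0232. Over all genes 303 were called; the number was 527 with GC and length correction, 526 with that and a replicate block, 556 with a replicate block, 564 with a term for replicate 2, 139 with a pseudocount of 1 FPKM, 464 at an adjusted p of at most 0.05, 546 with no fold threshold, and 61 to 316 in the fits without 1 library. The number of genes called fell most without shControl replicate 1 (61), shEphexin1 replicate 1 (79), shEphexin1 replicate 3 (109) and shControl replicate 3 (121), and was 189 without shControl replicate 2. The median over members was -0.098 with GC and length correction (also with the block), -0.067 with arm medians subtracted, -0.073 with quantile normalization, and -0.176 to -0.085 in the fits without 1 library. Of the 47 members tested, 18 changed sign under at least 1 setting. Among the members followed by name, directions turned for SLC25A3 (0.087, quantile normalization), SLC25A39 (0.063 with arm medians subtracted, -0.33 to 0.092 without 1 library), MTCH1 (0.094 with quantile normalization, -0.18 to 0.133 without 1 library), SLC25A13 (0.062 with GC and length correction, with and without the block, 0.065 with quantile normalization, and -0.085 to 0.0034 without 1 library) and SLC25A1 (-0.46 to 0.014 without 1 library). The cause was not tested.

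Whether equal replicate numbers pair the samples is not stated, and the deviations of the libraries do not settle it. The correlation of deviations from the group means was 0.091, 0.430 and 0.328 for numbers 1, 2 and 3, not over 0.1 in each, so the block result is given here only: 2 members were called with it. As a hint from the data only, every library correlated best with its own number. For shEphexin1 replicate 1 this was nearly a tie, at 0.0914 with shControl replicate 1 and 0.0887 with shControl replicate 3. The deviations within a group are taken from the same mean, so these correlations are not independent of one another. No count model (edgeR, DESeq2) was run, because FPKM are not counts. Depth is unknown, so members below 1 FPKM are the least certain.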
